A study of Mus musculus with 167 samples.

Results

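Ribosomal protein pseudogenes are copies of ribosomal protein genes whose symbols join the name of the parent gene to the suffix -ps. The members described here were every symbol starting with Rpl or Rps and holding -ps whose estimated counts summed to at least 1000 over all libraries. This gave 92 members out of 300 such symbols, in a table of 36118 genes. The 3 members just inside the limit were Rps15a-ps4 (1013 counts), Rpsa-ps4 (1037) and Rps25-ps1 (1066), and symbols just outside it included Rpl28-ps2 (999) and Rps2-ps7 (989).

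RNA was sequenced from 167 tumours of 119 mice in 35 strains. Each strain is the offspring of males of a Collaborative Cross (CC) inbred strain and MexTAg females, which carry a transgene for the large T antigen of a simian virus under the mesothelin promoter. All mice received 2 intraperitoneal injections of 3 mg Wittenoom crocidolite asbestos, and no tumour came from a mouse without asbestos or from a strain without the cross. The labels place 83 mice above and 36 below median survival and do not give sex or age. On the autosomes a progeny mouse carries 1 chromosome set from each parent strain, so CC alleles were measured beside those of the MexTAg parent, whereas a male has its X chromosome from the MexTAg mother. Per-mouse values are sums over the tumours of a mouse, and comparisons between strains used the 103 mice (144 tumours) of the 25 strains with at least 3 mice. Beyond survival class and a number in the library title, the labels say no more of the mice of a strain than their codes. The p-values measure the spread between these mice, which includes any difference by class or by number.

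Ribosomal proteins of the small (Rps) and large (Rpl) subunit build the ribosome, and their messenger RNAs are among the most abundant in a growing cell. Processed pseudogenes arise when such a messenger RNA is copied back into DNA and inserted elsewhere in the genome, without the parent's introns and usually without its promoter. A young copy differs from its parent at few bases, so short reads from either can match both, and a program that assigns reads to transcripts splits such reads by estimation. Inbred mouse strains differ in their pseudogenes by base changes and by the presence of whole copies.

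In the annotation of build GRCm38, 84 members were processed pseudogenes, 5 transcribed processed pseudogenes and 3 were annotated as protein coding. They lay on 19 chromosomes, 10 of them on X, and 54 overlapped no other gene. Their 42 parents held between 1 and 6 members each, Rpl19 the most. Over their aligned length the members were 87.5% to 100% identical to their parent, with a median of 99.2%. Of the 92, 24 had no run of 31 bases that is found in no other gene, and 14 had no difference from the parent in the aligned bases.

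The following 110-base stretches of the GRCm38 reference show how little separates a pseudogene from its parent, for 5 members with wide differences between strains and 1 with small ones. Each pair is written 5′ to 3′ on the strand of the transcript, with differing bases in capitals. Positions are counted from 1 at the start of the stretch, and a token such as C55T gives the parent's base first.
Rps2-ps13: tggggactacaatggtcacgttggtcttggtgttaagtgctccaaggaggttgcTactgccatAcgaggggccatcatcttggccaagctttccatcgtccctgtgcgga
Rps2: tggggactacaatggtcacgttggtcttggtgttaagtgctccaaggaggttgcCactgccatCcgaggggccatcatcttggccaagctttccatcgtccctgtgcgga
Rps24-ps3: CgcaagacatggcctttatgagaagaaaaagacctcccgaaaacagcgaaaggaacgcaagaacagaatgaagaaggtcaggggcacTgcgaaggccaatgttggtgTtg
Rps24: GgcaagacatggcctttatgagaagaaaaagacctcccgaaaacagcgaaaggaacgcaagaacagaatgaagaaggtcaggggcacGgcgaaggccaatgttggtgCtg
Rpsa-ps2: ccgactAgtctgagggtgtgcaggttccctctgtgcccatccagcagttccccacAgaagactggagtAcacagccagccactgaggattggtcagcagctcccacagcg
Rpsa: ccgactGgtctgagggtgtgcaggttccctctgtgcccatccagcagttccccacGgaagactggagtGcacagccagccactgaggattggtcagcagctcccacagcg
Rps15a-ps7: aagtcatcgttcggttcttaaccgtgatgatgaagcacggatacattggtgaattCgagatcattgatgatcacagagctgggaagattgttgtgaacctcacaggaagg
Rps15a: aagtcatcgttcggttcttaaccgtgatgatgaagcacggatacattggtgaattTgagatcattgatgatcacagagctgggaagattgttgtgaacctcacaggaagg
Rpl35a-ps2: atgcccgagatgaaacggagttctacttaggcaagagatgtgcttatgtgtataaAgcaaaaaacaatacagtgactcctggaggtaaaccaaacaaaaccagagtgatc
Rpl35a: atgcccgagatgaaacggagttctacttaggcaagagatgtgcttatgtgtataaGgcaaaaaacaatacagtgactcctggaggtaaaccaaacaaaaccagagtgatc
Rpl10-ps3: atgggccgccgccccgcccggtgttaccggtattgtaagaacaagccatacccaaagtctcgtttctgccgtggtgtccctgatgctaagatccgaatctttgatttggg
Rpl10: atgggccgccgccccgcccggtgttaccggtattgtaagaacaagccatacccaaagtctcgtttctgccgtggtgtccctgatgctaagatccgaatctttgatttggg

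The stretch of Rps2-ps13 is chrX:52898977-52899086 on the plus strand, and its 2 changes are C55T and C64A. That of Rps24-ps3 is chrX:79195319-79195428 on the plus strand, with G1C, G88T and C108T. That of Rpsa-ps2 is chr10:128776408-128776517 on the minus strand, with G7A, G56A and G69A. Rps15a-ps7 lies at chr2:152185480-152185589 on the minus strand and differs by T56C, and Rpl35a-ps2 at chr1:181242111-181242220 on the minus strand differs by G56A. The stretch of Rpl10-ps3, chr9:50344832-50344941 on the minus strand, has no difference from Rpl10. Rpl35a-ps2 is 1 of 4 copies with the same sequence on chromosomes 1, 2, 5 and 17 (Rpl35a-ps2, Rpl35a-ps3, Rpl35a-ps4 and Rpl35a-ps6). Their counts were equal in all 167 libraries, so they are 1 measurement and their values are given once below. Counts, shares and medians over members hold all 4 copies, except where they are said to be counted once.

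Libraries held between 11138491 and 35399287 counts, with a median of 22539831. Mesothelial markers varied widely: mesothelin (Msln) ranged from 0.644 to 1162 CPM (counts scaled to a common library total) with a median of 16.8, and Upk3b from 0 to 1335. In 18 libraries markers of another tissue took over 1% of counts. The highest shares were 45.3% for reproductive tract and 20.3% for hepatocyte markers, beside medians of 9.76e-06% and 0.0206% over the libraries. Over 300 strain-variable genes that are not members, 5 libraries lay nearer to another strain than to the labelled one: the libraries labelled Rogan C3 tumour 2 (nearest CC046), LOX D1 tumour 2 (LAT), LAT D3 tumour 2 (LOX), LAT F5 tumour 2 (CC059) and MEE A3 tumour 1 (CC044). Their correlation with the labelled strain was between -0.177 and 0.143, and with the nearest between 0.719 and 0.921. In addition, 17 libraries carry a number of 3 digits in their titles, where the highest number of the others is 72; they are called late-numbered here. Results are given with all libraries and, where they change, without these 22 libraries, which leaves 90 mice for the strain comparison.

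The members took 0.365% of all counts and their 42 parents 1.52%. The 10 members with the most counts held 70.5% of the members' counts. By mean over mice, 30 members reached 10 CPM, 20 lay between 1 and 10 CPM and 42 below 1 CPM. The 14 members without a difference from the parent held 68.2% of the members' counts.

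Strain differences were widespread among the members, as among genes at large. Of the 91 members that passed the filter on low counts, 70 differed between the 25 strains (edgeR quasi-likelihood F-test, Benjamini-Hochberg adjusted p under 0.05). This is 76.9%, beside 68.9% of all 20808 genes tested, so the share called is near the background. With the 22 libraries left out 65 of 91 members were called, beside 14064 of 21155 genes. The share of the variance of log2 CPM that lies between strains had a median of 44.4% over the 92 members, beside 35.4% over all genes tested, 46.6% over the parents, 49.3% over 92 cytosolic ribosomal protein genes and 42.6% over 133 other named pseudogenes. With no difference between strains this share would average 23.5% over the 103 mice, and it would be higher over 90.

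At the upper end, 13 of 92 members (14.1%) had at least 80% of their variance between strains, the 4 Rpl35a copies among them. Of all genes tested 0.841% reached this share, of the other named pseudogenes 11 of 133 (8.27%), of the ribosomal protein genes 1 of 92, and of the parents none of 42. With the 22 libraries left out 20 members reached 80%, beside 258 of the 20808 genes tested, where 175 did with all libraries. Of the other named pseudogenes 20 of 133 then did so, of the ribosomal protein genes 2 and of the parents 0. The differences between these lists were not tested.

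**Figure D1:**
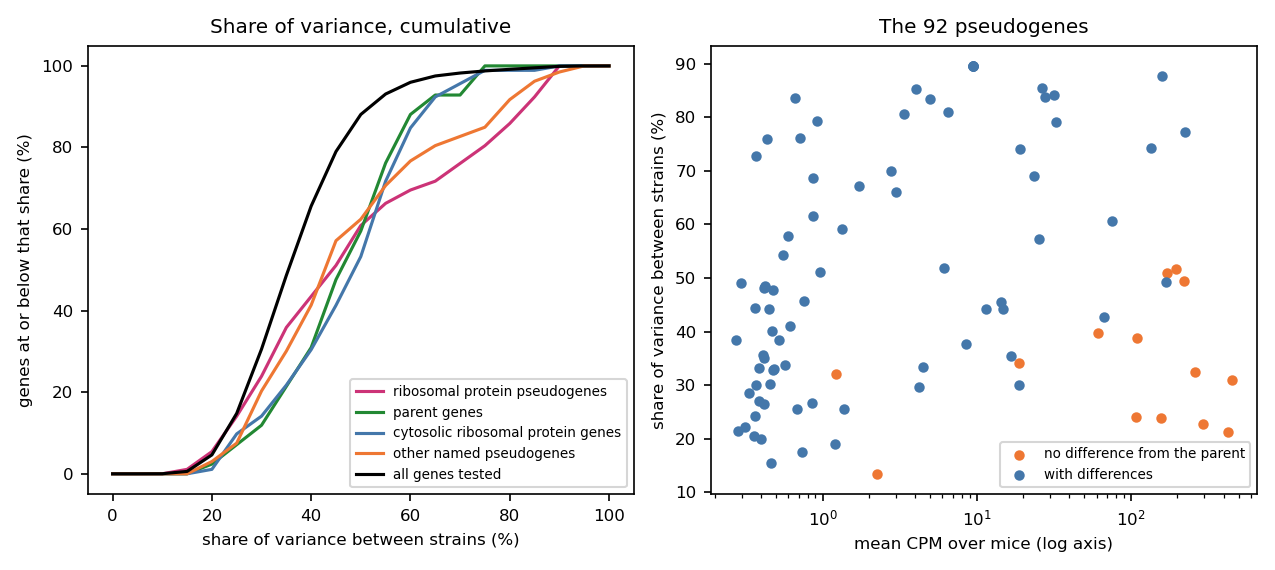
Left, the percent of genes (y axis) at or below a given share of variance between strains (x axis, percent), with 1 line for each list; 13 of the 92 members lie at 80% or more, beside 0.841% of all genes tested. Right, the same share (y axis) against mean CPM (log x axis), 1 point per member; none of the 14 members without a difference from the parent lies above 51.7%.

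Rps2-ps13, a processed pseudogene of Rps2 at chrX:52898588-52899469 that overlaps no other gene, had high and low strains. Rps2 encodes a protein of the small subunit. Ordered by strain median, the 25 strains split at their widest gap into 8 with high and 17 with low values. In the 38 mice of CC035, CC053, CC058, CIS, LAX, LOX, TAS and VUX, Rps2-ps13 ranged from 152.1 to 794 CPM with a median of 375. In the 65 mice of the other 17 strains it ranged from 0.803 to 236 CPM with a median of 13.7. The groups overlapped through 1 mouse: 236 CPM belongs to a LAT mouse whose sum includes the library labelled LAT D3 tumour 2, in which Rps2-ps13 stood at 1006 CPM, beside 2.99 to 8.92 CPM in 6 other LAT tumours that are neither late-numbered nor nearer to another strain. Without the 22 libraries the high strains ranged from 152.2 to 1042 CPM and the low strains from 3.43 to 33.3 CPM, with no overlap. The strains were split by these same values, so no test of the split is given. Over all strains the adjusted p was 1.26e-22 (edgeR), and 87.7% of the variance lay between strains, 96.4% without the 22 libraries.

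**Figure D2:**
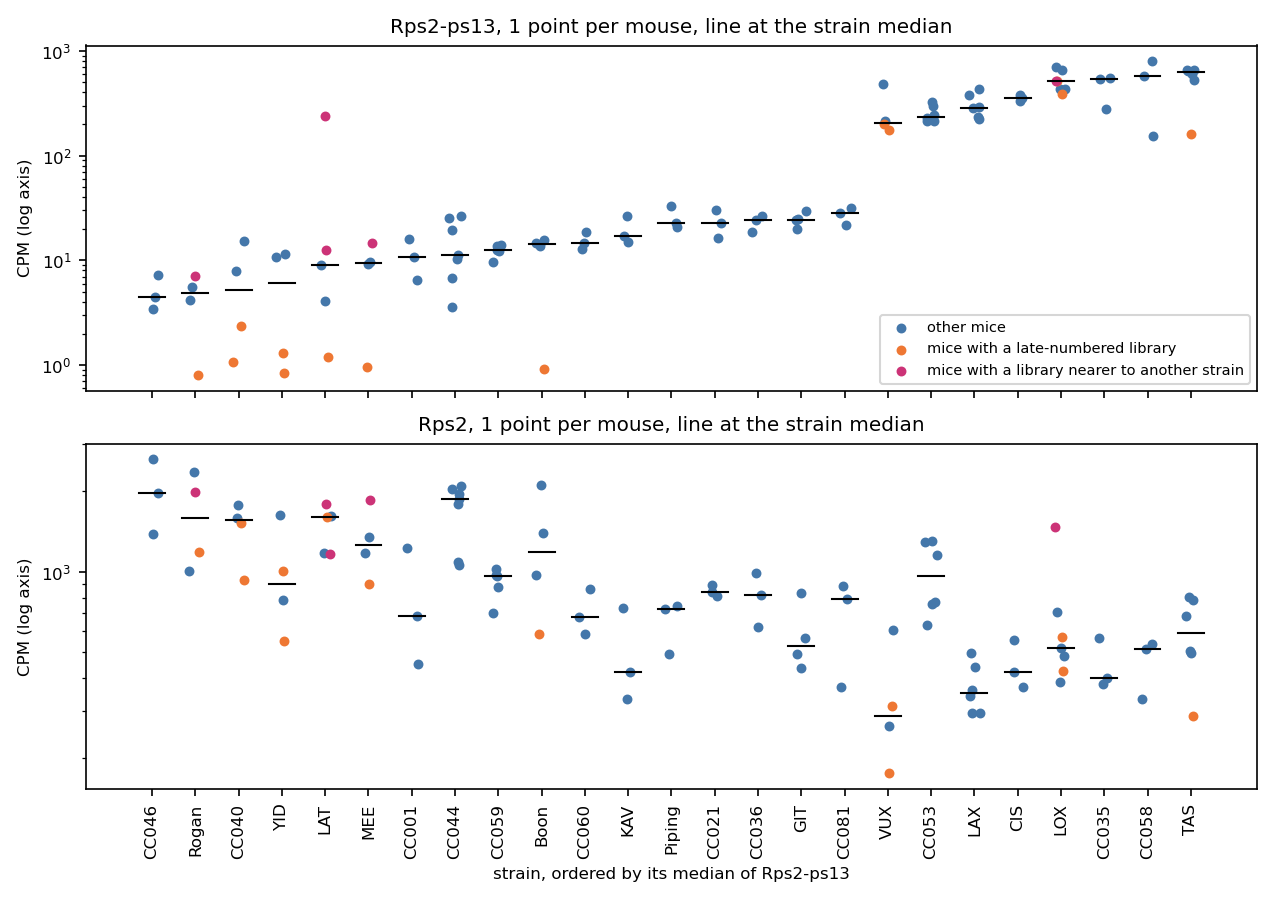
CPM (log y axis) of Rps2-ps13 (top) and Rps2 (bottom) in each mouse of the 25 strains, ordered by their median of Rps2-ps13, with a line at each strain's median and colours for mice with a late-numbered library or a library nearer to another strain. The 8 strains on the right lie at 152.1 CPM or more of Rps2-ps13, and 1 LAT mouse at 236 CPM is the exception among the 17 on the left.

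The parent's median was lower in the 8 strains than in the 17, and the groups overlapped. Rps2 had a median of 500 CPM (176 to 1472) in the mice of the 8 strains and 972 CPM (334 to 2635) in those of the 17, described without a test because Rps2-ps13 chose the strains. In counts not corrected for length, Rps2-ps13 came to 82.2% of its parent in the first and 1.34% in the second. When Rps2 and its 5 members were summed, the share of variance between strains fell from 74.1% for Rps2 alone to 53.7%, and the range of the strain means fell from 2.66 to 1.68 on the log2 scale. In LOX the members made up 57.4% of that sum, and in Rogan 1.41%. Rps2-ps13 holds 47 of 852 runs of 31 bases that occur in no other gene, and 77.9% of its runs are found in Rps2.

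Sums over other families varied in either direction. For Rps15a and its 5 members the share fell from 47.1% for the parent to 24.7% for the sum, for Rpl10 and its 3 members from 42.7% to 27.3%, and for Rpl35a and its 4 copies from 55.6% to 44.7%. For Rpl17 it rose from 22.5% to 39.4% with 5 members added, and for Rpl19 from 42.7% to 52.3% with 6. Taken as the log2 ratio to the parent, 49 of the 92 members had a higher share of variance between strains than as log2 CPM.

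Several small-subunit copies had 2 levels. Rps24-ps3 (chrX:79195047-79195448, no overlapping gene) copies Rps24, a small-subunit protein gene. It ranged from 12.2 to 239 CPM with a median of 77.5 in the 35 mice of CC001, CC021, CC036, CC040, CC044, CC046, LAT, Piping and YID. In the 68 mice of the other 16 strains the range was 0.728 to 76.9 CPM, with a median of 2.10. The 4 low-strain mice that reached the lowest high one included LOX, MEE and Rogan mice with a library nearer to another strain, and a CC059 mouse at 76.9 CPM that has none. With the 22 libraries left out, the CC059 mouse alone was above the lowest high one.

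Rpsa-ps2 (chr10:128776371-128777250, no overlapping gene) is a copy of Rpsa, which encodes a small-subunit protein also known as a laminin receptor. Its 6 high strains were CC001, CC021, CC058, CC081, GIT and LAT, at 12.6 to 258 CPM with a median of 127 (21 mice). The other 82 mice lay between 0.171 and 85.7 CPM, with a median of 2.23. CC001 was itself wide, with its 3 mice at 12.6, 57.8 and 207 CPM. The low strains reached 18.9 CPM when the 22 libraries were left out, and 91.4% of the variance lay between strains in place of 83.8%.

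Rps15a-ps7 (chr2:152185291-152185682, no overlapping gene) copies Rps15a, also of the small subunit. It ranged from 16.3 to 207 CPM with a median of 103 in the 22 mice of CC021, CC035, CC053, CC081, GIT and Piping, and from 0 to 37.1 CPM with a median of 2.85 in the other 81. These overlapped in 3 mice on each side, with or without the 22 libraries. CC001 and CC058 stood between the levels, with medians of 13.1 and 12.5 CPM. The copy came to 58.7% of the parent's counts in the high strains and to 0.903% in the others.

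Rps19-ps6 (chr12:110898114-110898551) lies in an intron of Tecpr2 on the same strand, so its counts cannot be told apart from reads of unspliced Tecpr2. Rps19 encodes a small-subunit protein mutated in Diamond-Blackfan anaemia. The strain medians of Rps19-ps6 were highest in CC058, CC059, LAX, Rogan, VUX and YID, at a median of 21.4 CPM over 26 mice beside 0.493 CPM over the other 77. The 5 mice of CC059 were split: 3 stood at 20.2, 22.7 and 22.7 CPM, mouse E2 at 0.753 CPM and mouse B1 at 0.138 CPM. Mouse E2 is also the CC059 mouse with 76.9 CPM of Rps24-ps3, while B1 had 1.26 CPM of it. All tumours of CC059 E2 and B1 were nearest to CC059 over the members.

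Rpl21-ps15 lies at chrX:151215167-151215649 in an intron of Wnk3 on the opposite strand and copies Rpl21, a large-subunit protein gene. The 14 mice of GIT, KAV and LOX ranged from 75.5 to 330 CPM with a median of 109, and the 89 mice of the other 22 strains from 0 to 30.95 CPM with a median of 0.544, without overlap. The 30.95 CPM belongs to the LAT mouse with the library nearest to LOX, and without the 22 libraries the low strains reached 5.72 CPM. In the high strains the copy came to 51.7% of the parent's counts, although it has no run of 31 bases of its own.

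Rpl28-ps3 (chr4:126069867-126070259, in an intron of Oscp1 on the opposite strand) was high in LAT and Piping. Their 8 mice ranged from 18.9 to 60.8 CPM with a median of 30.3, and the other 95 from 0 to 32.1 CPM with a median of 0.244. The highest of these, 32.1 CPM, is the LOX mouse with the library nearest to LAT, and without the 22 libraries the low strains reached 6.17 CPM. Rpl3-ps2 (chrX:74170653-74171866, no overlapping gene), a copy of the gene for a large-subunit protein near the peptidyl transferase centre, was high in CC021 and CC058. It ranged from 12.98 to 40.7 CPM there (6 mice), and from 0.123 to 20.1 CPM in the other 97 mice, whose highest value fell to 2.87 CPM without the 22 libraries. Its share of variance between strains rose from 66.1% to 90.1% when they were left out.

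Rpl17-ps5 (chr5:22612628-22613182) copies Rpl17, whose protein lines the ribosomal exit tunnel, and has no run of 31 bases of its own. Its values were highest in CC044, at 114 to 250 CPM (7 mice), and in MEE, at 35.0 to 239 CPM (4 mice). The 3 CIS mice ranged from 1.22 to 42.8 CPM, and single mice of LOX and TAS reached 129 and 88.5 CPM. When the 22 libraries were left out CC044 and MEE ranged from 106 to 251 CPM and all other strains up to 88.5 CPM.

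Rpl7-ps7 and Rpl15-ps2, copies of large-subunit protein genes, had high levels near 9 CPM. Rpl7-ps7 had a median of 9.44 CPM in 9 strains and 0.374 CPM in the other 16, and Rpl15-ps2 had 9.17 CPM in 11 strains and 0.384 CPM in the other 14. Neither pattern had a mouse on the wrong side when the 22 libraries were left out. The 4 Rpl35a copies were low in CC044, CC046, CC059, CC081, KAV and Rogan, at 0 to 1.36 CPM with a median of 0.409 (25 mice), and ranged from 2.38 to 44.7 CPM with a median of 10.9 in the other 19 strains (78 mice), without overlap. Their share of variance between strains, 89.6%, was the highest among the members with all libraries. Without the 22 libraries it was 92.9%, below that of Rps2-ps13 (96.4%) and Rpl7-ps7 (95.5%), among others.

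**Figure D3:**
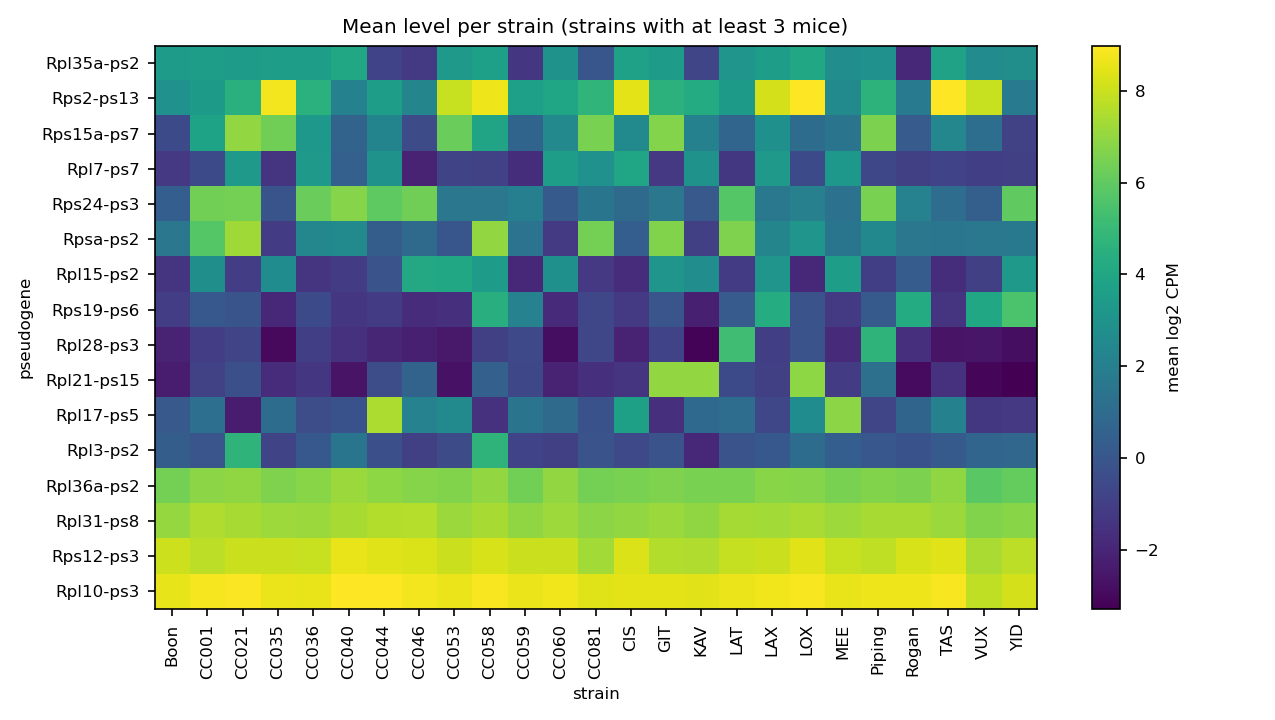
Mean log2 CPM of the named members (rows) in the 25 strains with at least 3 mice (columns), all libraries included. The Rps2-ps13 row is high in 8 strains, the Rpl21-ps15 row in 3, and the bottom rows, from Rpl36a-ps2 to Rpl10-ps3, change little between strains.

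At the other end, 4 abundant copies did not pass the strain test. Rpl36a-ps2, Rpl31-ps8, Rps12-ps3 and Rpl10-ps3 had 23.98%, 23.8%, 22.7% and 21.2% of their variance between strains, and adjusted p of 0.284, 0.340, 0.155 and 0.513 (edgeR). All 4 are identical to the parent in every aligned base. Rpl10-ps3, annotated as protein coding, held 164 to 1056 CPM in single mice, and the Rpl10 members made up 65.9% to 88.7% of the counts of Rpl10 and its members by strain. Without the late-numbered libraries Rps12-ps3 passed the test (adjusted p = 0.000331, edgeR), with 49.8% of its variance between strains.

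Identity to the parent went with smaller strain differences. The 14 members without a difference had shares of variance between strains of 13.4% to 51.7% with a median of 32.2%, and none reached 80%. The 78 members with differences ranged from 15.5% to 89.6% with a median of 48.02%. Among members with a mean of at least 10 CPM the medians were 33.3% (12 without differences) and 64.8% (18 with). Copies without a difference share all or nearly all of their reads with the parent, and no test was made over members, several of which share a parent.

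Profiles over the 25 strains were compared between members of different parents, with the 22 libraries left out. The profile most like that of Rpsa-ps2 was Rpl3-ps2 (Pearson r = 0.63, Spearman rho = 0.66 over strain means). For Rps2-ps13 it was Rps13-ps2 (r = 0.46, rho = 0.43). For Rpl17-ps5 it was Rpl28-ps1 (r = 0.70, rho = 0.78), and for Rpl28-ps3 it was Rps12-ps10 (r = 0.67, rho = 0.30). The highest r among the named members joined abundant copies without differences, Rpl10-ps3 with Rpl31-ps8 (r = 0.88, rho = 0.91) and Rps12-ps3 with Rpl27-ps3 (r = 0.91, rho = 0.92). These points share libraries and depth, and the values are descriptions.

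Variation within mice and strains was of a size with that between strains. The median standard deviation of log2 CPM over the members was 0.84 between tumours of a mouse, 1.10 between mice of a strain and 1.02 between strain means. These medians include the 42 members with a mean below 1 CPM, which lie near the floor. Tumour values come from single libraries and mouse values from sums. For 30 members the strain means varied more than the mice of a strain, and for 40 without the 22 libraries. A few members were present in a minority of libraries at high values. Rps13-ps2 had counts in 47 of 167 libraries with up to 306 CPM, Rpl38-ps2 in 8, and Rpl10-ps1 in 1 library at 239 CPM. Rps6-ps4, identical to its parent, ranged from 0 to 3643 CPM.

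A strain was called on where every mouse had at least 4 CPM and off where every mouse had under 1 CPM. By this rule 16 members, the 4 Rpl35a copies among them, had both on and off strains. The rule was applied to the members only, so it does not show whether they exceed genes at large. A further 11 were on in every strain and Rps15a-ps4 was off in every strain. Rpl28-ps3 was on in 2 strains and off in 21, Rpl7-ps7 on in 9 and off in 11, and Rpl15-ps2 on in 9 and off in 9. Depth limits the off calls little, since 3 counts are 0.269 CPM in the shallowest library and 0.0847 CPM in the deepest.

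Single tumours broke these patterns. With strains called by their median mouse and the 4 Rpl35a copies counted once, 30 members had on and off strains, and 188 of 4320 pairs of member and tumour went against the strain: 87 on in an off strain and 101 off in an on strain. With each of the 4 copies counted there were 194 of 4752. Breaks were counted for members only, and no share over all genes is given. A break was present in 74 of 144 tumours. The 5 libraries nearer to another strain had 23 breaks (4.6 each), the 13 late-numbered tumours 40 (3.08 each) and the other 126 tumours 125 (0.992 each). The most breaks were in TAS H5 (8) and LOX E4 (7), both late-numbered. The members that broke most often were Rps13-ps2 (21), Rpl30-ps9 (19), Rpl21-ps8 (15) and Rps13-ps1 (13). Rpl21-ps8 was on in late-numbered libraries of off strains and off in other libraries of CC040, VUX and YID. Medians of those strains rest in part on late-numbered mice. Only its breaks in CC001 H2 tumour 1 and CIS E2 tumour 2 were of neither sort. Rpl30-ps10 and Rps23-ps2 broke in late-numbered libraries and in CC040. Such breaks by kind of library are thus also among the 125. In LOX E4, Rps13-ps2 stood at 292 CPM and Rps13-ps1 at 0, where the LOX median mouse had 0 and 80.4 CPM. This exchange was not confined to late-numbered libraries. LOX F4 had 306 and 0.324 CPM and LOX F2 had 181 and 0.268 CPM, and neither is late-numbered. Rps13-ps2 had counts in 1 of the 17 late-numbered libraries and in 46 of the other 150.

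The library labelled LOX D1 tumour 2 carried the levels of LAT: Rps2-ps13 at 2.57 CPM (379 to 1056 in 6 other LOX tumours), Rpl21-ps15 at 0 (99.0 to 342), Rpl28-ps3 at 62.4 CPM (0 to 1.19) and Rpsa-ps2 at 166 CPM (1.31 to 5.51). The library labelled LAT D3 tumour 2 carried those of LOX, with Rpl21-ps15 at 131 CPM (0 to 1.97 in 6 other LAT tumours) and Rpl28-ps3 at 0.471 CPM (23.4 to 102). For Rogan C3 tumour 2, Rps24-ps3 stood at 121 CPM, beside 1.07 to 2.30 CPM in 4 other Rogan tumours and 48.7 to 108 CPM in 4 CC046 tumours. MEE A3 tumour 1 had 97.6 CPM of Rps24-ps3 (0.669 to 2.36 in 5 other MEE tumours, 12.3 to 156.2 in 14 CC044 tumours) and 0.442 CPM of Rpl15-ps2 (14.2 to 24.02 and 0.05005 to 3.09). LAT F5 tumour 2 lay between: Rpsa-ps2 at 10.1 CPM and Rpl28-ps3 at 4.01 CPM were below 6 other LAT tumours, and within the range of 9 CC059 tumours. That range was set by CC059 F2 tumour 2, which had 36.8 CPM of Rpsa-ps2 and 12.5 CPM of Rpl28-ps3 where tumour 1 of the same mouse had 1.86 and 0.165 CPM. How these libraries came to differ from their labels was not tested.

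When each tumour was matched over all 92 members to the strain means, with its own mouse left out, the labelled strain was nearest for 112 of 144 tumours (77.8%, 95% Wilson interval 70.3% to 83.8%). It was nearest for 0 of the 5 doubted libraries, 5 of the 13 late-numbered and 107 of the other 126 (84.9%). The 5 went to the same strains as over other genes. Of the 8 late-numbered tumours that were nearest to another strain, 7 went to YID and 1 to VUX. The means of YID and VUX themselves include late-numbered mice (YID C1 and G3, VUX2 B1 and G1). Those mice and LOX E4 gave the 5 late-numbered tumours that were nearest to their own strain. Matching by strain and by kind of library therefore cannot be told apart here. The same matching gave 56.9% over the 42 parents, 30.6% over the ribosomal protein genes and 88.9% over the other named pseudogenes. With the 22 libraries left out these were 86.5% for the members, 59.5%, 32.5% and 91.3%. Tumours of a mouse are not independent, so the intervals cover counting error only.

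**Figure D4:**
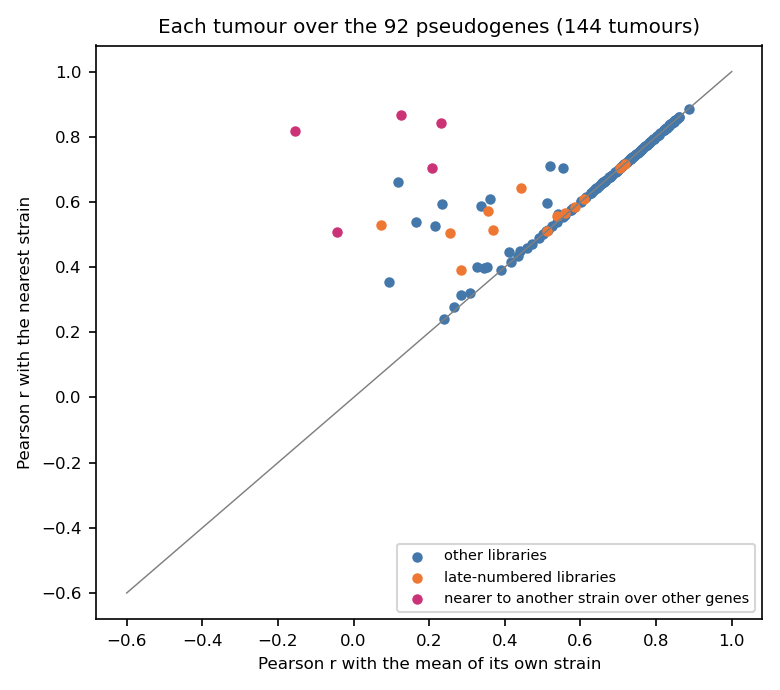
Pearson r over the 92 members of each of 144 tumours with the mean of its labelled strain (x axis) and with its nearest strain (y axis), 1 point per tumour. The 112 points on the diagonal are nearest to their label, and the 5 libraries nearer to another strain over other genes lie far above it.

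The late-numbered libraries differed from the others in many members. This comparison was added after the data were seen. Within the 10 strains that have both, 14 mice with such a library were set against 30 other mice, with strain in the fit. Of 76 members tested, 34 passed (21 higher, 13 lower in the late-numbered libraries, edgeR adjusted p under 0.05), beside 5.29% of all 16378 genes tested. Of the 42 parents 8 passed, 1 higher and 7 lower. The late-numbered libraries were shallower, at 11138491 to 21192947 counts (median 16586588) beside 19301251 to 35399287 (median 22820314). They came from 16 mice, 8 above and 8 below median survival. Library preparation dates and sequencing runs were not given in the sources used here, and the part of depth in these differences was not tested.

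All 21 members that rose had differences from the parent. Rpl21-ps8 had 14.7 to 89.4 CPM in the 17 late-numbered libraries and 0 to 4.65 CPM in the other 150, a log2 difference within strains of 6.29 (SE 0.37, adjusted p = 1.43e-14, edgeR). Rpl30-ps10 had 2.83 to 27.4 beside 0 to 0.918 CPM, Rps23-ps2 1.35 to 11.6 beside 0 to 0.694, and Rpl31-ps14 1.67 to 6.19 beside 0 to 0.886. These 4 members did not overlap between the kinds of library over all strains, whereas 13 of 18327 genes with a count sum of at least 1000 did so (0.0709%). The count limit is a sum over all libraries, so it can admit a member through the late-numbered ones. Rpl30-ps10 had a median of 6.66 CPM in these and 0 in the others, and Rps23-ps2 5.73 and 0.0445 CPM. The number of members that rose or did not overlap rests in part on this limit and is a description.

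The members that fell included abundant copies. Of 11 tested members without a difference from the parent 7 passed and all 7 were lower, among them Rpl10-ps3 (median 212 CPM beside 431, log2 difference -0.92, adjusted p = 9.37e-05) and Rps12-ps3 (148.8 beside 281 CPM, -1.30, adjusted p = 5.11e-05, both edgeR). Of 65 with differences 27 passed, 21 higher. Rps2-ps13 had separate levels inside each kind of library. In its low strains it stood at 0.822 to 2.42 CPM in 8 late-numbered libraries and at 2.99 to 32.6 CPM in 83 others, and in its high strains at 166 to 528 CPM in 5 and 143 to 1056 CPM in 43. These ranges leave out the 5 libraries nearer to another strain. Rpl21-ps15 in its low strains was 0 in all 11 late-numbered libraries, and 0 to 5.69 CPM in 111 others.

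**Figure D5:**
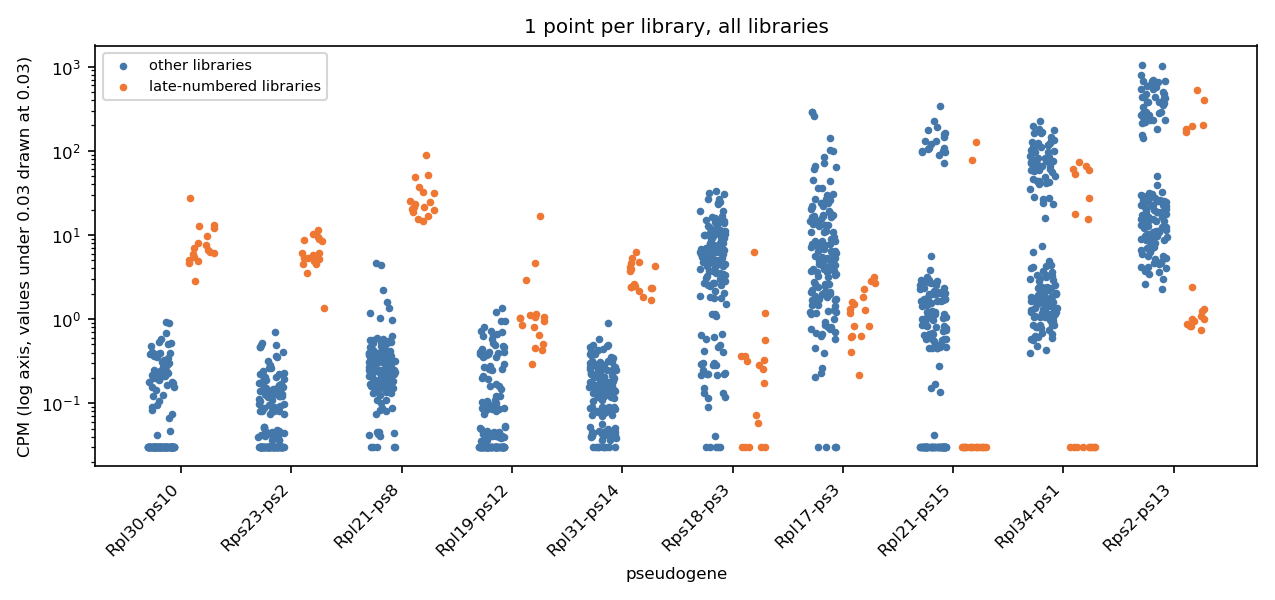
CPM (log y axis, values under 0.03 drawn at 0.03) of the 10 members with the largest rises and falls among those that passed, in the 150 other and the 17 late-numbered libraries, 1 point per library. Rpl21-ps8, Rpl30-ps10, Rps23-ps2 and Rpl31-ps14 do not overlap between the kinds.

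Within strains the members followed their parents in part. Member and parent were both centred on their strain mean over the 103 mice, and 36 of 92 members were related to the parent (permutation within strain, adjusted over the 92 members), 35 positively. The 35 include the 4 Rpl35a copies. The strongest were Rpl28-ps1 (r = 0.65, rho = 0.63), Rpl31-ps8 (r = 0.64, rho = 0.66) and Rps15a-ps6 (r = 0.59, rho = 0.61), each at an adjusted permutation p of 0.000153 for r and for rho, and at a raw p of 1e-05, the smallest the permutations can give. Without the 2 mice with the most extreme parent level r was 0.63, 0.64 and 0.59. The negative one was Rpl17-ps9 (r = -0.44, adjusted permutation p = 0.0103; rho = -0.28, adjusted permutation p = 0.0524), with r = -0.40 without the 2 mice. With the 22 libraries left out 43 members were related positively and 4 negatively, Rpl17-ps9, Rpl30-ps9, Rps13-ps2 and Rpl17-ps5. For Rps2-ps13 r within strains was 0.42, while its high strains had the lower median of Rps2. Reads shared by estimation can link a member and its parent in either direction, and this was not tested.

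No member passed the comparison of survival classes. Of 72 tested members 0 differed between mice below and above median survival (edgeR, adjusted p under 0.05), where 1.54% of all 17176 genes did. At an unadjusted p under 0.05 (edgeR) there were 3 of the 72 members, beside 1502 of 17176 genes. limma-voom and DESeq2 called 0 members, beside 0 and 286 of all genes. Without the filter on low counts 3 of 92 members passed as lower below median survival (edgeR), beside 1108 of 32303 genes. They were Rpl10-ps1, which has counts in 1 library, Rpl5-ps2 (adjusted p = 0.0393, edgeR) and Rpl19-ps5 (adjusted p = 0.0421, edgeR). With strain in the fit, over 57 mice of strains with both classes, 0 of 64 members passed (0.0% of all genes tested). An unadjusted p under 0.05 (edgeR) was found for 6 members and for 1763 of 16567 genes. limma-voom and DESeq2 again called 0 members, beside 0 and 61 of all genes. A p that misses the threshold does not show that levels were equal.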

How the data were processed

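Whole tumours were homogenised and strand-specific mRNA libraries were prepared, per the labels' protocols. The authors deposited an estimated count per gene and tumour, given as whole numbers without normalization. kallisto 0.46.1, DESeq2, DESeq and GRCm38 are named per the submitters' processing notes; annotation release and settings were not given in the sources used here. A deposited normalized table holds the same values and was not used. Of 167 columns 165 were joined to 1 sample by title, and 2 only to their mouse.

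Mouse sums were TMM-scaled, filtered with filterByExpr and compared by the quasi-likelihood F-test of edgeR 4.0.16 (R 4.3.3), two-sided, with Benjamini-Hochberg adjustment over all genes tested. limma 3.58.1 and DESeq2 1.42.0 served as alternatives. Log2 CPM used a prior count of 2. The steps were tested on simulated data. Sequences, positions and parents come from the reference annotation of GRCm38, and each member was aligned to its parent's transcripts. Correlations used 100000 permutations (10000 in alternatives), two-sided.

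Named members were the 12 with the largest share of variance between strains at a mean of at least 1 CPM, the 8 with the largest range of strain means among those with on and off strains, any called between survival classes, the 4 with the smallest share at a mean of at least 10 CPM, and the 3 symbols on each side of the count limit, of which 1 is not reported here. Other members were named after their values were seen. Members and lists were chosen with earlier results of these data known.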

Additional observations from a re-analysis of the deposited data

Results flagged for a closer look

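Of 24 groups of 4 to 10 mice examined for single mice far from the rest, chance would set apart about 1 in 20, and 5 values stood apart. Of these, 4 share 1 set of counts, so that they are a single observation. In mouse E3 of Rogan, whose library is late-numbered, Rpl35a-ps2, Rpl35a-ps3, Rpl35a-ps4 and Rpl35a-ps6 were at 0 CPM (log2 CPM -3.97 each), where the other 3 Rogan mice lay between -1.47 and -1.08. In mouse D1 of YID Rpl21-ps15 stood at 0.365 CPM (log2 CPM -1.22), and the other 3 YID mice were at 0 counts (-3.97 each). Both differences lie within the level at which these members are off, under 1 CPM.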

How the results depend on the processing

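The count of members called between strains was 56 to 75 over the other tools, scalings, filters and sets of libraries, and 65 in each fit without 1 mouse number, against 70. The fit with 56 was limma-voom, which called 10415 of 20808 genes, and that with 75 was DESeq2, which called 16262. The fits without 1 mouse number called 10717 to 13040 genes. Of the 70 members called, 36 had a count sum of at least 10000, a limit that also leaves fewer members to call. Between survival classes 3 of 92 members passed without the filter on low counts, beside 1108 of 32303 genes, and 0 members under the other settings. The median share of variance between strains (44.4%) was 42.9% with a prior count of 0.5, 41.6% with the first tumour of each mouse, 41.2% as a log2 ratio to the parent, 51.8% at a count sum of at least 10000, 49.8% without the late-numbered libraries, 49.3% without these and the 5 libraries nearer to another strain, and 48.7% to 51.1% without 1 mouse number. Members with on and off strains (16) were 10 with limits of 8 and 0.5 CPM and 19 to 27 without 1 mouse number. Breaks (194 with each Rpl35a copy counted) were 78 with limits of 8 and 0.5 CPM, 374 with 2 and 1 CPM and 110 without the 22 libraries. Tumours nearest to their strain (77.8%) were 86.5% without the 22 libraries. Members related to the parent (36) were 21 to 31 without 1 mouse number. For the named members 226 of 228 values between strains kept their side of the threshold, and the exceptions were Rps12-ps3 without the late-numbered libraries (49.8%, adjusted p = 0.000331, edgeR) and without the 22 (49.3%, adjusted p = 0.000256, edgeR). Leaving out the 22 libraries together, counting the Rpl35a copies once among the breaks (188), and the comparison by library number were chosen after the data were seen. No paired analysis was possible because mouse numbers are names in accession order and pair no mice across strains. At low depth a copy under about 0.27 CPM cannot be told from 0, and for copies identical to their parent depth does not help.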

Other observations

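The 10 strains with 1 or 2 mice stand outside the strain comparison, and their 16 mice are given as values. Rps2-ps13 stood at 469 and 270 CPM in the CC017 mice and at 644 and 190 CPM in the TOFU mice. It was at 49.5 and 38.1 CPM in WOB2 and between 0.803 and 24.1 CPM in the 10 mice of the other 7 strains. Rpl21-ps15 stood at 115 and 71.3 CPM in PEF2 and at 3.21 CPM or less in the other 14 mice. Rpsa-ps2 was at 401 and 210 CPM in VIT, at 228 CPM in the WAB2 mouse and at 102 and 90.8 CPM in PEF2, and the other 11 mice had 11.9 CPM or less. Rps24-ps3 stood at 64.7 CPM in WAB2 and at 53.1 and 43.8 CPM in TOFU, and at 4.53 CPM or less elsewhere. Rps15a-ps7 reached 113 and 32.1 CPM in WOB2, and Rpl3-ps2 33.6 CPM in WAB2. Rpl17-ps5 stood at 580 and 117 CPM in VIT, at 130 and 102.8 CPM in CC017, at 101.3 and 37.8 CPM in TOFU, at 31.2 CPM in the PUB mouse and at 19.7 and 14.7 CPM in WOB2, and the other 7 mice had 4.97 CPM or less. Rpl28-ps3 was under 1 CPM in all 16 mice.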
